A study of Homo sapiens with 9 samples.

Results

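HSP90 genes and the cochaperones that work with them were followed across 9 Affymetrix human genome expression arrays of Jurkat Clone E-6 cells, an established human T lymphocyte line. The members were 10 genes chosen by name, HSP90AA1, HSP90AB1, TRAP1, CHORDC1, PTGES3, STIP1, FKBP4, CACYBP, CDC37 and AHSA1, and every probe set listed with one of these symbols was taken. This gave 24 of the 54613 probe sets tested, for 9 of the 10 genes, since AHSA1 had no listed probe set and was not analysed here. Of the 24, 1 probe set (228655_at) was listed with 2 symbols, CHORDC1 and NAALAD2, and is described as such throughout. The nsEP group (nanosecond electrical pulses) held 3 samples that received 100 pulses, each of 10 ns and 150 kV/cm, the heat shock group held 3 samples warmed in a water bath, and the sham group held 3 samples handled the same way with no pulse and no heating. All cells were placed in electroporation cuvettes, and RNA was taken 4 h after exposure from samples that the labels call biological replicates. All came from 1 cell line, so the spread between arrays holds differences between cultures of this line and those of RNA quality, labelling and array handling. With bulk RNA, fewer cells carrying a transcript cannot be told apart from less transcript per cell.

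HSP90 is an ATP-driven chaperone dimer that holds kinases, steroid receptors and other signalling proteins near their native fold. Cochaperones set the pace and the cargo of this cycle by loading clients, slowing or speeding ATP use and coupling HSP90 to HSP70. Several genes of the family carry heat shock elements, alternating copies of the unit GAA and its complement TTC spaced by NN, which heat shock factor HSF1 binds in stressed cells. In T cells the kinase LCK, which signals from the T cell receptor, is a known client.

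Windows of 300 bases around the annotated RefSeq transcript starts (GRCh38.p14, 250 bases before to 50 after the start) were searched on both strands for 3 alternating units, GAANNTTCNNGAA or its complement TTCNNGAANNTTC. Of the 9 genes with a listed probe set, 8 had a window here, 13 windows in all. Of these, 3 genes held a match, against 166 of 27305 genes (0.608%) and 172 of 35116 windows (0.49%) in the whole set. The sequences of these 3 windows are shown because they carry the element near an annotated start of HSP90AA1, HSP90AB1 and CHORDC1. They run 5′ to 3′ on the gene's strand, with the matched units in capitals.
HSP90AA1, chr14:102086995-102087294, minus strand: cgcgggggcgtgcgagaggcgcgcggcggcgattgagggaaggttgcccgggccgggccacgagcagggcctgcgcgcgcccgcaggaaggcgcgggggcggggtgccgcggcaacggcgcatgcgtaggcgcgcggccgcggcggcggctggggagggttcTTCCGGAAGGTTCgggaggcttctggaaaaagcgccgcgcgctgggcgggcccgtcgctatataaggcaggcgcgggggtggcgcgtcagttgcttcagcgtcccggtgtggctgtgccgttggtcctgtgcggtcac
HSP90AB1, chr6:44247693-44247992, plus strand: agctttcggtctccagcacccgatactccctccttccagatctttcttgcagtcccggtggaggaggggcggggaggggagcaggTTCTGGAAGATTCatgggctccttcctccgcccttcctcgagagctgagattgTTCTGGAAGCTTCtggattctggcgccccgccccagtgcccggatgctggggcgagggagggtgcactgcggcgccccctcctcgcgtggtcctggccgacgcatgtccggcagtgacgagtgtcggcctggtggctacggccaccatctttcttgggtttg
CHORDC1, chr11:90223000-90223299, minus strand: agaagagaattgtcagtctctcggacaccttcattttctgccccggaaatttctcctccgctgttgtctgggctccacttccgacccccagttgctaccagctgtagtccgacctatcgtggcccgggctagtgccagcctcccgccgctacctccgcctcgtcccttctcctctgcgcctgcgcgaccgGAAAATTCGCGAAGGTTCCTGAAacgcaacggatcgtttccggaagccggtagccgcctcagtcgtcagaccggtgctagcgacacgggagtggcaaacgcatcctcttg

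The HSP90AA1 match, TTCCGGAAGGTTC, lay 88 to 76 bases before the start in 1 of its windows, at chr14:102087120-102087132. Its window at chr14:102139700-102139999 held no match of either kind. HSP90AB1 held 2 matches, TTCTGGAAGATTC at chr6:44247778-44247790 and TTCTGGAAGCTTC at chr6:44247831-44247843, before the last of its 3 annotated starts and downstream of the other 2. CHORDC1 held an unbroken run of 5 units, GAAAATTCGCGAAGGTTCCTGAA, at chr11:90223087-90223109, 60 to 38 bases before the start. STIP1 had 2 units only, TTCCAGAA, 13 to 20 bases after one of its starts, and 2 units were found in 13.5% of all windows. No match of either kind was in the windows of TRAP1, PTGES3, CACYBP and CDC37, which says only that these letters were not in these windows. FKBP4, which had no window here, and AHSA1 were not searched.

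**Figure D1:**
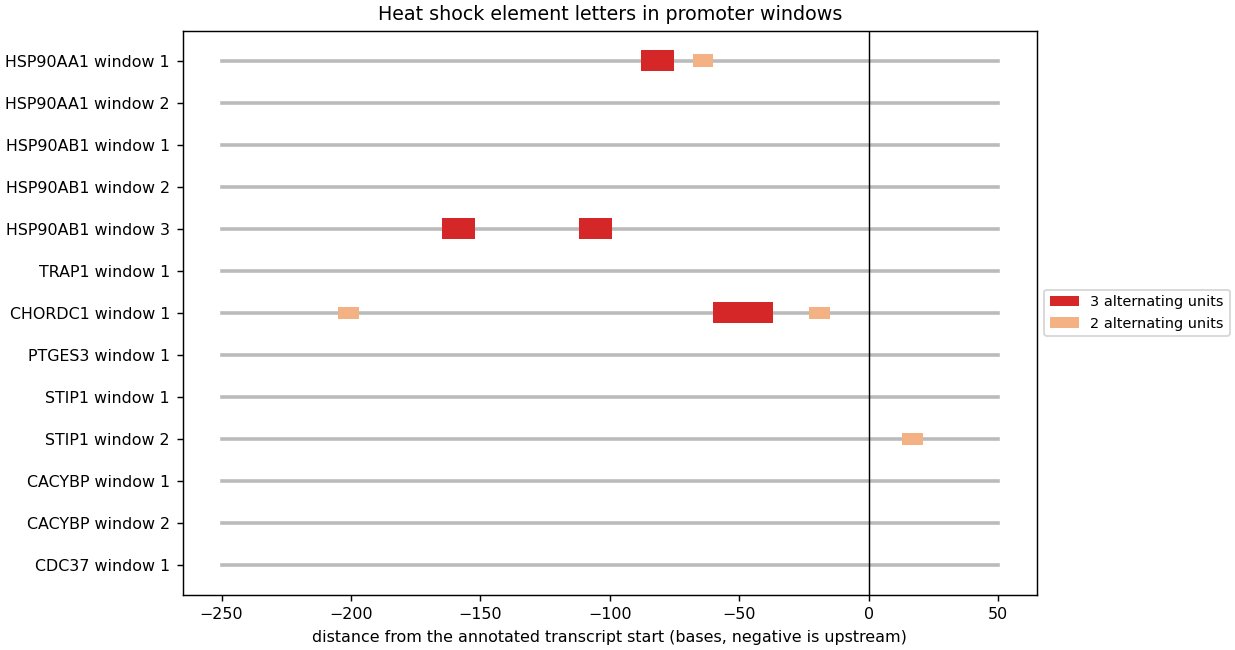
Heat shock element letters in the 13 promoter windows of 8 genes, plotted as distance from the annotated transcript start in bases. Dark bars mark 3 alternating units, present in 1 window each of HSP90AA1, HSP90AB1 and CHORDC1, and pale bars mark 2 units.

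Signals are given as log2 of the MAS5 signal, in which each array is scaled to a common trimmed mean, and a difference of 1 is a change of 2-fold. SE is the standard error of the log2 ratio in the limma fit over all 9 arrays, adjusted p is after Benjamini-Hochberg over all 54613 probe sets, and a probe set is called when its adjusted p is under 0.05. The arrays held the T cell transcripts of the labelled line, with CD3D at 14.51 to 15.09 in nsEP samples, 14.66 to 15.08 in heat shock samples and 14.34 to 14.65 in sham samples. The summed signal of 12 T cell markers was 77078 to 99177 in nsEP, 69402 to 89345 in heat shock and 74636 to 80764 in sham samples. Of these 12, 3 were called lower with heat shock, as given below. The sum of 8 myeloid markers was 367.3 to 527.8 in nsEP, 630.6 to 813.2 in heat shock and 374.2 to 440.5 in sham samples. That of 5 B cell markers was 878.8 to 1406.7 in nsEP, 873.1 to 1374 in heat shock and 763 to 1151.3 in sham samples. Among the myeloid markers CD14 was called in heat shock against sham (log2 ratio 4.78, SE 0.69, adjusted p = 0.00193), 1 of the 8, and its part in the results below was not tested.

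In heat shocked cells 9 of the 24 probe sets were higher than in sham cells and called, covering HSP90AA1, HSP90AB1, STIP1, FKBP4, CACYBP and the probe set shared by CHORDC1 and NAALAD2, with ratios of 1.49-fold to 2.61-fold, while under scaling to the poly-A spike-in controls, control RNAs added to a sample before labelling, 0 of the 24 were called and 19 had a log2 ratio below 0. Of all 54613 probe sets 4.17% were called in this comparison, and 1.81% of the 54613 were called higher, against 9 of 24 here. In spike-in scaling 153 of all probe sets were called higher and 3104 lower. In nsEP cells 0 of the 24 were called against sham, where 0.0586% of all probe sets were. Between the exposures, 10 of the 24 were lower in nsEP than in heat shock and called, against 4.96% of all probe sets in either direction and 2.65% lower, while under spike-in scaling 0 were called and 18 had a log2 ratio above 0. Over all probe sets that scaling gave 1483 calls higher and 135 lower. In MAS5 scaling without sham sample 1, heat shock sample 1 or heat shock sample 3 the heat shock count was 4, and without sham sample 2 it was 5. Over all probe sets these fits gave 1363, 1130, 1253 and 1176 calls in turn, against 2276 with all arrays. The count between the exposures was 3 without heat shock sample 3, 4 without nsEP sample 2 or heat shock sample 1 and 6 without heat shock sample 2. Over all probe sets these gave 1343, 1498, 1450 and 1764 calls in turn, against 2707 with all arrays. Without the shared probe set the heat shock count over sham was 8 of 23 in 5 genes, and 9 of 23 in 5 genes were lower in nsEP than in heat shock.

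**Figure D2:**
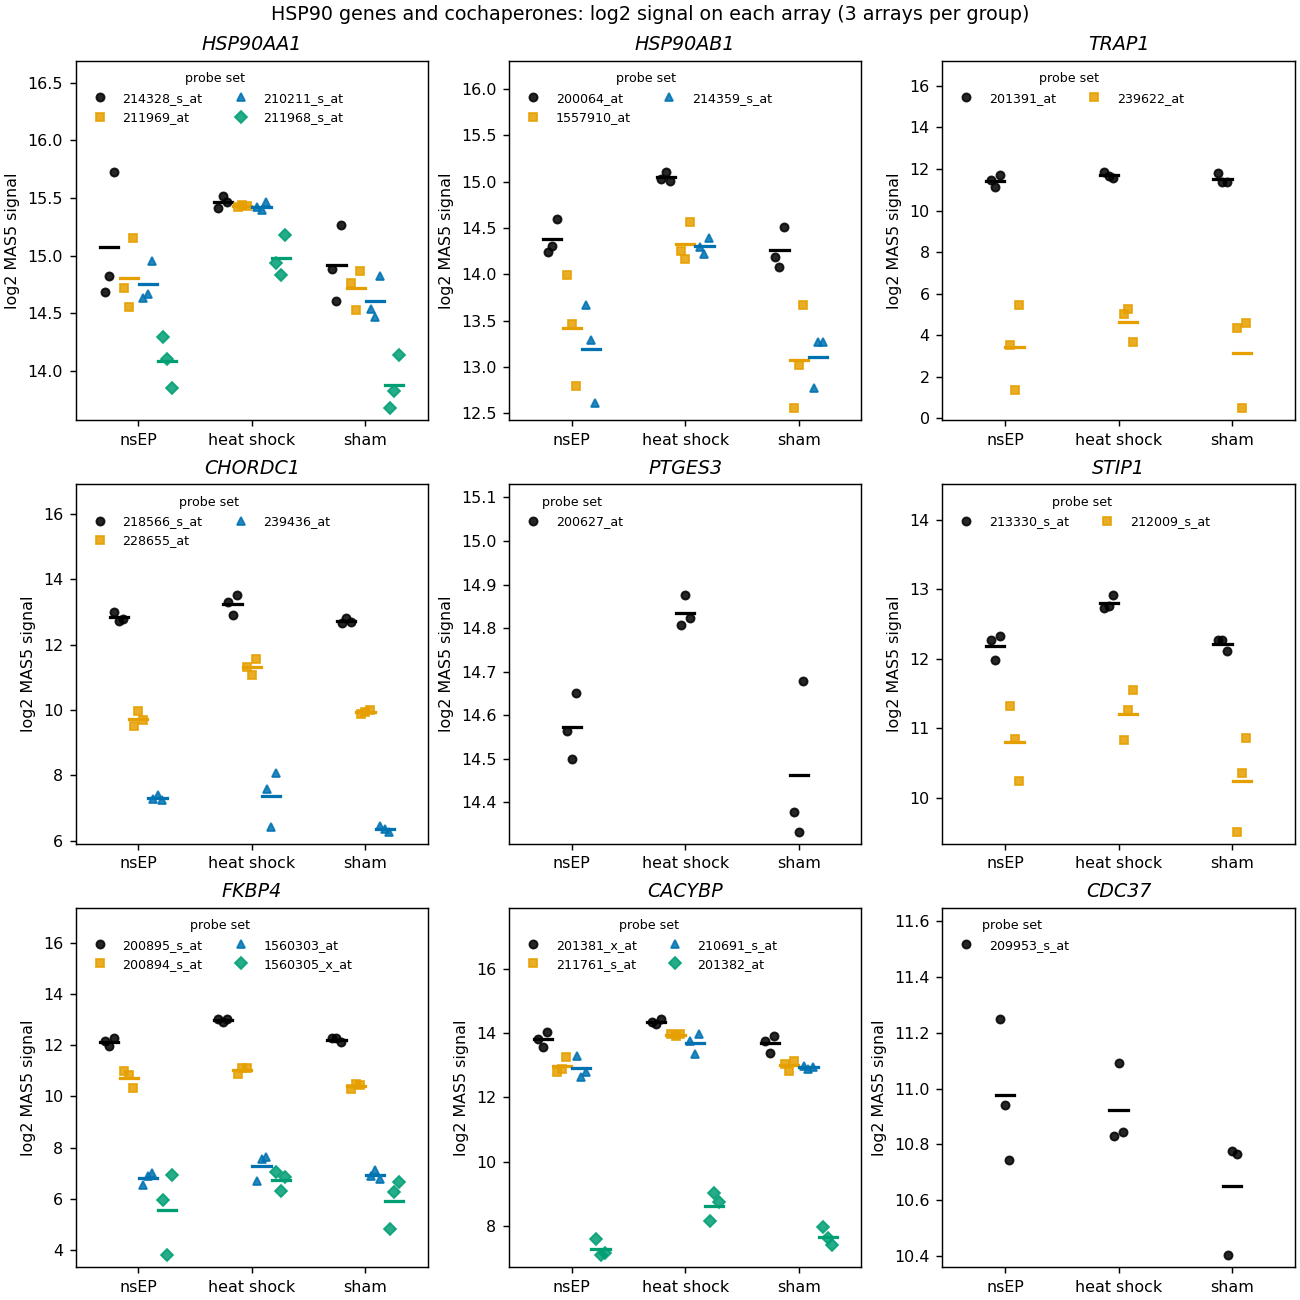
The log2 MAS5 signal of each of the 24 probe sets on each array, 1 panel per gene, with points for the 3 arrays of the nsEP, heat shock and sham groups and a line for each group mean. Signals of different probe sets are not on a common scale, and the spread within groups is widest for the dim TRAP1 probe set 239622_at, from 0.49 to 4.58 among sham samples.

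HSP90AA1 encodes the stress-inducible cytosolic HSP90, and 4 probe sets measured it. Probe set 211968_s_at read 14.30, 14.10 and 13.85 in nsEP samples, 14.94, 14.83 and 15.18 in heat shock samples and 13.68, 13.83 and 14.14 in sham samples. Every heat shock value lay above every nsEP and sham value, and the nsEP and sham values overlapped. It rose 2.14-fold with heat shock (log2 ratio 1.10, SE 0.18, limma adjusted p = 0.00451; log2 ratio 0.0895 in spike-in scaling, not called), and this call held without any 1 of the 9 arrays. Probe set 210211_s_at read 14.63, 14.67 and 14.95 in nsEP samples, 15.42, 15.39 and 15.47 in heat shock samples and 14.54, 14.47 and 14.82 in sham samples. Its heat shock samples again stood clear of the other 6, by 1.76-fold over sham (log2 ratio 0.82, SE 0.17, limma adjusted p = 0.0157), but at −0.19 in spike-in scaling. That call was lost without sham sample 1 or 2 or any 1 heat shock sample, with an adjusted p of 0.0523 to 0.0801 in these 5 fits.

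The other 2 HSP90AA1 probe sets did not pass the test. Probe set 211969_at read 14.72, 14.56 and 15.16 in nsEP samples, 15.42, 15.44 and 15.43 in heat shock samples and 14.76, 14.53 and 14.86 in sham samples. The heat shock samples did not overlap either other group, and the log2 ratio over sham was 0.71 (SE 0.18, limma adjusted p = 0.0515). Probe set 214328_s_at read 14.69, 14.82 and 15.73 in nsEP samples, 15.41, 15.52 and 15.47 in heat shock samples and 14.88, 14.60 and 15.26 in sham samples. Here nsEP sample 3 was the highest of all 9, and the log2 ratio of heat shock over sham was 0.55 (SE 0.26, limma adjusted p = 0.289). On the heat shock arrays the brightest HSP90AA1 probe set read 15.42 to 15.52, where the highest signal of the whole array was 15.78 to 15.88 and 41 to 52 probe sets were brighter. Against sham, nsEP log2 ratios of the 4 probe sets were 0.09 to 0.20, none called.

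HSP90AB1 encodes the cytosolic HSP90 that unstressed cells make constitutively, and its 3 probe sets were all called higher with heat shock. Probe set 214359_s_at read 13.67, 13.30 and 12.61 in nsEP samples, 14.29, 14.22 and 14.39 in heat shock samples and 12.77, 13.27 and 13.27 in sham samples. Heat shock values lay close together while the other groups spread, nsEP sample 3 being the lowest of the 9. The ratio over sham was 2.29-fold (log2 ratio 1.20, SE 0.24, limma adjusted p = 0.0137; 0.19 in spike-in scaling, not called). Probe set 1557910_at read 13.99, 13.46 and 12.80 in nsEP samples, 14.25, 14.16 and 14.56 in heat shock samples and 12.55, 13.02 and 13.67 in sham samples, so that heat shock again stood above both groups. Its ratio was 2.37-fold (log2 ratio 1.25, SE 0.31, limma adjusted p = 0.0393; 0.24 in spike-in scaling, not called). Probe set 200064_at read 14.24, 14.30 and 14.59 in nsEP samples, 15.03, 15.10 and 15.01 in heat shock samples and 14.19, 14.07 and 14.51 in sham samples. The 3 heat shock samples were the highest here too, 1.73-fold over sham (log2 ratio 0.79, SE 0.17, limma adjusted p = 0.0208), but at a log2 ratio of −0.22 in spike-in scaling.

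These 3 calls leaned on single arrays to different degrees. The call of 214359_s_at was lost without sham sample 1 (adjusted p = 0.0656), heat shock sample 1 (0.0559) or heat shock sample 3 (0.0612). That of 200064_at was lost without sham sample 1 or 2 or any 1 heat shock sample (0.0688 to 0.101), and that of 1557910_at without any of these 5 arrays or nsEP sample 2 (0.0574 to 0.147), all by limma. For HSP90AB1 the log2 ratios of nsEP over sham were 0.12 for 200064_at, 0.09 for 214359_s_at and 0.34 for 1557910_at, with limma adjusted p of 0.906 to 0.978. The 95% interval for 200064_at ran from −0.25 to 0.49, which leaves room for a difference in either direction.

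TRAP1, the HSP90 of mitochondria, gave no call. Probe set 201391_at read 11.47, 11.12 and 11.70 in nsEP samples, 11.87, 11.65 and 11.55 in heat shock samples and 11.80, 11.37 and 11.36 in sham samples. The 3 groups overlapped throughout. The log2 ratio was −0.08 for nsEP over sham and 0.18 for heat shock over sham, where the 95% interval ran from −0.22 to 0.58. The other probe set, 239622_at, was dim and its sham values spread from 0.49 to 4.58, so that its heat shock log2 ratio of 1.51 had an SE of 1.21.

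CHORDC1 encodes a zinc-binding cochaperone, also called morgana, that binds HSP90 through its CHORD and CS domains. The largest called ratio of the family belonged to the probe set shared with NAALAD2, 228655_at, which read 9.51, 9.96 and 9.71 in nsEP samples, 11.33, 11.09 and 11.55 in heat shock samples and 9.87, 9.93 and 10.02 in sham samples. The heat shock samples stood more than 1 log2 unit above all the others. The ratio over sham was 2.61-fold (log2 ratio 1.38, SE 0.17, limma adjusted p = 0.000617; 0.37 in spike-in scaling, not called), and the call held without any 1 of the 9 arrays, at an adjusted p of up to 0.00527. In RefSeq the shared partner NAALAD2 is the neighbouring gene, at chr11:90131699-90192894, beside CHORDC1 at chr11:90200429-90223049. The 5 probe sets listed for NAALAD2 alone were looked up after these values were seen. All were dimmer than the median probe set of the array, and none was called in heat shock against sham. The brightest of the 5 still read higher with heat shock, at 7.04, 6.34 and 6.86 against 5.58, 5.93 and 5.50 in sham samples. Its log2 ratio was 1.08 (limma adjusted p = 0.174), and the others had log2 ratios of −0.57 to 1.29. Which gene gave the rise of the shared probe set was not tested.

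The 2 probe sets listed for CHORDC1 alone were not called. Probe set 218566_s_at read 13.01, 12.73 and 12.80 in nsEP samples, 13.30, 12.92 and 13.52 in heat shock samples and 12.67, 12.83 and 12.70 in sham samples. The heat shock samples lay above the sham samples without overlap, with a log2 ratio of 0.52 (SE 0.17, limma adjusted p = 0.121). Probe set 239436_at read 7.28, 7.39 and 7.26 in nsEP samples, 7.58, 6.43 and 8.07 in heat shock samples and 6.45, 6.35 and 6.28 in sham samples. It was the only probe set of the 24 whose nsEP and sham samples did not overlap, where 5.07% of all probe sets had nsEP higher without overlap. The log2 ratio was 0.95 (SE 0.39, 95% interval 0.11 to 1.79), and it did not pass the limma test over all probe sets (adjusted p = 0.640). With the methods' t-test on the same 6 arrays the adjusted p was 0.369. Heat shock sample 2 lay within the sham range for this probe set, and without it heat shock against sham was called (log2 ratio 1.47, limma adjusted p = 0.0341), against 1.00 and 0.187 with all arrays.

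STIP1, also called HOP, bridges HSP70 and HSP90 so that a client can pass between them. Probe set 213330_s_at read 12.26, 11.98 and 12.32 in nsEP samples, 12.72, 12.75 and 12.91 in heat shock samples and 12.27, 12.27 and 12.11 in sham samples. The heat shock samples were the highest 3 of the 9, 1.49-fold over sham (log2 ratio 0.58, SE 0.14, limma adjusted p = 0.0421), but at −0.43 in spike-in scaling. This call had the highest adjusted p of the 9 and held without nsEP sample 2 or without nsEP sample 3, and was lost in the other 7 fits with 1 array left out, at an adjusted p of 0.0506 to 0.154. Probe set 212009_s_at read 11.32, 10.84 and 10.24 in nsEP samples, 10.82, 11.26 and 11.54 in heat shock samples and 9.51, 10.35 and 10.85 in sham samples. All groups overlapped, and its log2 ratio of heat shock over sham, 0.97, had an SE of 0.33 (limma adjusted p = 0.137).

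FKBP4, or FKBP52, is a peptidyl-prolyl isomerase that joins HSP90 on steroid receptors. Probe set 200895_s_at read 12.17, 11.96 and 12.27 in nsEP samples, 13.04, 12.90 and 13.03 in heat shock samples and 12.27, 12.27 and 12.11 in sham samples. Each heat shock sample was above all of the other 6, while nsEP and sham overlapped. It rose 1.71-fold with heat shock (log2 ratio 0.77, SE 0.14, limma adjusted p = 0.00742), with a log2 ratio of −0.24 in spike-in scaling, and the call held without any 1 of the 9 arrays, at an adjusted p of up to 0.0431. Probe set 200894_s_at read 11.00, 10.83 and 10.31 in nsEP samples, 10.86, 11.11 and 11.12 in heat shock samples and 10.29, 10.50 and 10.43 in sham samples. Heat shock and sham did not overlap, and the log2 ratio of 0.62 did not pass (SE 0.18, limma adjusted p = 0.0816). The other 2 FKBP4 probe sets, 1560303_at and 1560305_x_at, overlapped between all groups, with heat shock log2 ratios of 0.37 and 0.82 and limma adjusted p near 0.60 for both.

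CACYBP encodes calcyclin binding protein, which carries a CS domain like other HSP90 partners and links SIAH1 to protein degradation. Probe set 211761_s_at read 12.79, 12.89 and 13.27 in nsEP samples, 13.98, 13.91 and 13.99 in heat shock samples and 13.05, 12.81 and 13.15 in sham samples. Heat shock samples were nearly equal and lay above the other 6. The ratio over sham was 1.94-fold (log2 ratio 0.96, SE 0.16, limma adjusted p = 0.00531), with a log2 ratio of −0.0531 in spike-in scaling, and the call held without any 1 of the 9 arrays. The 3 other CACYBP probe sets also had heat shock samples above all sham samples, but did not pass, with log2 ratios of 0.76 for 210691_s_at, 0.68 for 201381_x_at and 0.98 for 201382_at and limma adjusted p of 0.0505, 0.0587 and 0.0763. Against nsEP, 201382_at was called, since it read 7.58, 7.08 and 7.16 in nsEP samples, 8.13, 9.003 and 8.74 in heat shock samples and 7.94, 7.60 and 7.39 in sham samples. Its nsEP samples 2 and 3 lay below all sham samples, with a log2 ratio of nsEP over sham of −0.37 (SE 0.28, limma adjusted p = 0.865).

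PTGES3, or p23, holds the ATP-bound closed form of HSP90, and CDC37 brings kinases to it. PTGES3 probe set 200627_at read 14.56, 14.50 and 14.65 in nsEP samples, 14.81, 14.88 and 14.82 in heat shock samples and 14.38, 14.33 and 14.68 in sham samples. Heat shock samples were above the others, but by a log2 ratio over sham of only 0.37 (SE 0.16, limma adjusted p = 0.225). CDC37 probe set 209953_s_at read 11.25, 10.94 and 10.74 in nsEP samples, 10.83, 11.09 and 10.84 in heat shock samples and 10.40, 10.78 and 10.77 in sham samples. The nsEP samples spanned the heat shock range, and heat shock stood just above sham, at a log2 ratio of 0.27 (SE 0.17, limma adjusted p = 0.442). It was the only probe set of the 24 with a log2 ratio of nsEP over heat shock above 0 (0.06, 95% interval −0.32 to 0.43).

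Between the exposures, the 10 calls were all lower in nsEP than in heat shock, and 6 of the 10 changed sign in spike-in scaling. Groups did not overlap for 14 of the 24, all with nsEP lower, where 15.1% of all probe sets had nsEP lower without overlap. The 10 called probe sets were the heat shock calls of HSP90AA1, FKBP4 and STIP1, the HSP90AB1 probe sets 214359_s_at and 200064_at, the shared CHORDC1 and NAALAD2 probe set, and 3 CACYBP probe sets. The shared probe set differed most, at 3.02-fold lower in nsEP (log2 ratio −1.59, SE 0.17, limma adjusted p = 0.000222), followed by CACYBP 201382_at (−1.35, SE 0.28, adjusted p = 0.0152) and HSP90AB1 214359_s_at (−1.11, SE 0.24, adjusted p = 0.0182). FKBP4 200895_s_at differed by −0.86 (SE 0.14, adjusted p = 0.00356) and CACYBP 211761_s_at by −0.98 (SE 0.16, adjusted p = 0.00426), and these 2 calls and that of the shared probe set held without any 1 of the 9 arrays. The other 7 calls were each lost without at least 1 array. Those of HSP90AB1 200064_at and HSP90AA1 210211_s_at held only without sham sample 3 or nsEP sample 3 (adjusted p of up to 0.136 in the other fits), and that of CACYBP 210691_s_at only without nsEP sample 1 or heat shock sample 2 (up to 0.156). STIP1 213330_s_at was lost without nsEP sample 1 or 2 or any 1 heat shock sample (0.0532 to 0.127). HSP90AB1 214359_s_at was lost without nsEP sample 2 or heat shock sample 1 or 3 (0.0514 to 0.0792), and CACYBP 201382_at without nsEP sample 2 or heat shock sample 2 or 3 (0.0660 to 0.0718). HSP90AA1 211968_s_at was called at −0.90 (SE 0.18, adjusted p = 0.0137) and not without heat shock sample 1 (adjusted p = 0.0515) or 3 (0.0763). This comparison and heat shock against sham share the heat shock samples, so their calls are not independent of each other.

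**Figure D3:**
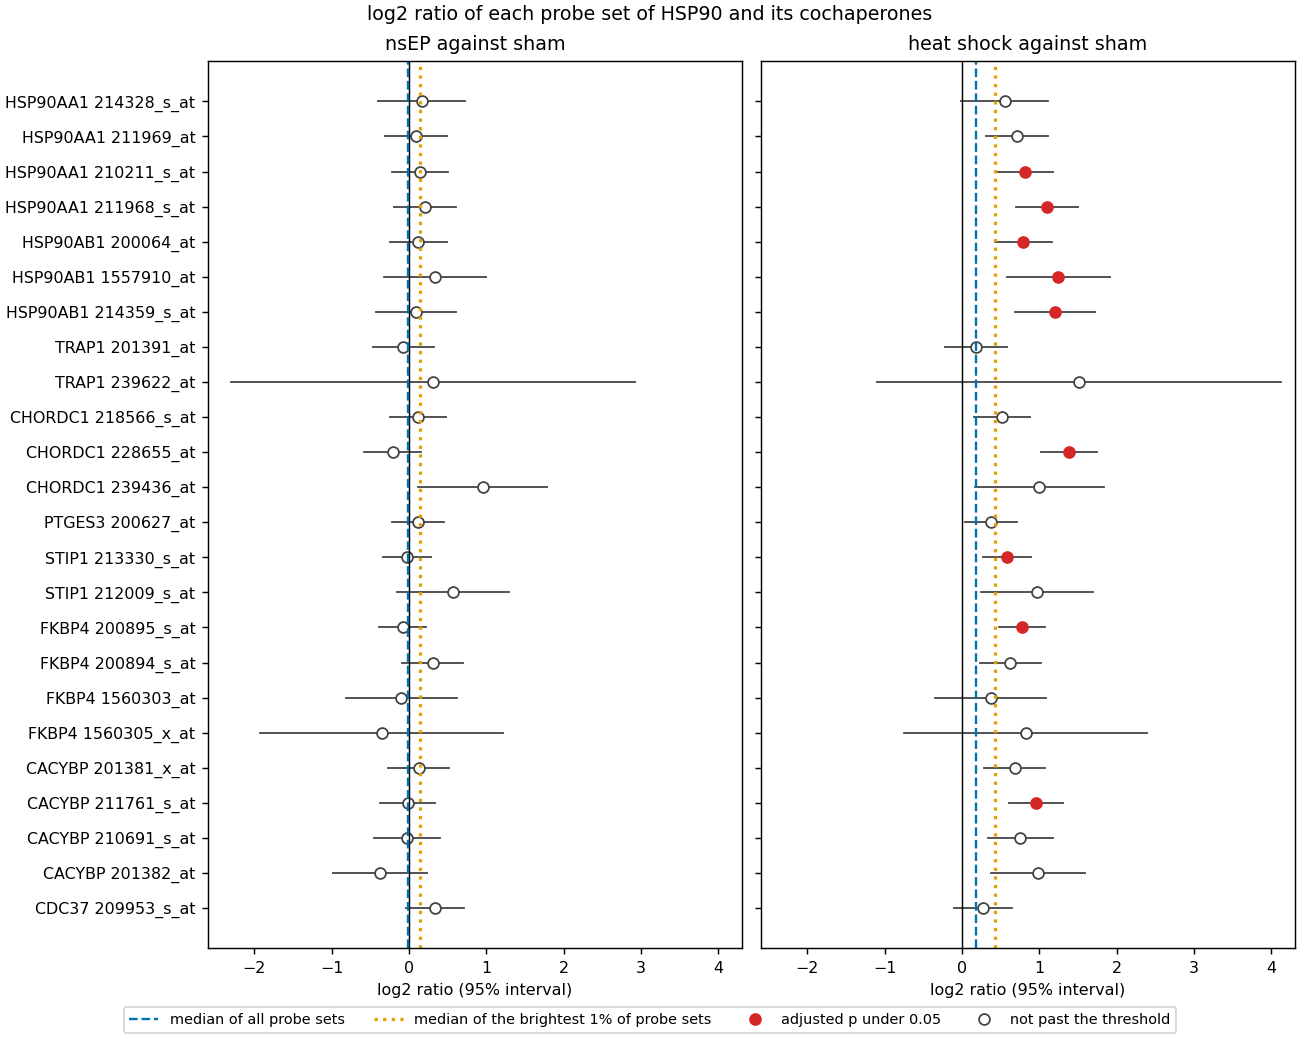
The log2 ratio of nsEP over sham and of heat shock over sham for each of the 24 probe sets, with 95% intervals from the limma fit, filled where the adjusted p was under 0.05. With heat shock all 24 points lie above 0 and 9 are filled, while with nsEP none is filled, and with poly-A spike-in scaling 19 of the 24 heat shock ratios lay below 0. Of all 54613 probe sets 33594 lay above 0 with heat shock as reported.

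Over the 24 probe sets, the median log2 ratio of heat shock over sham was 0.78, against 0.18 for all probe sets, and all 24 were above 0, while under poly-A spike-in scaling it was −0.23 against −0.83 and 19 of the 24 were below 0. As reported, 33594 of all 54613 probe sets were above 0. The distance between the members and all probe sets was 0.60 in both scalings. It could not have differed, since spike-in scaling moves every ratio of a comparison by the same amount. The spike-in means were 10.53 ± 0.72 in nsEP, 11.46 ± 0.31 in heat shock and 10.45 ± 0.50 in sham samples (log2 signal, SD, n = 3 each). The SE changed too in that scaling. In nsEP against sham it went from 0.14 to 0.45 for FKBP4 200895_s_at and from 0.16 to 0.44 for CACYBP 211761_s_at. For the dim TRAP1 239622_at it fell from 1.21 to 1.01. With array medians as the reference, 4 of the 24 were called in heat shock against sham, all higher. Of all 54613 probe sets 714 were called higher in that setting. Groups did not overlap for 18 of the 24, all with heat shock higher, where 16.6% of all probe sets had heat shock higher without overlap. For nsEP over sham the median was 0.11, against −0.01 for all probe sets, and 15 of the 24 were above 0. Of all 54613 probe sets 26506 were. At an unadjusted p under 0.05, 1 of the 24 passed in nsEP against sham by limma and 1 by the methods' t-test, where 7.0% and 6.09% of all probe sets did, with 0 of the 24 after adjustment by either. Without nsEP sample 3 the limma count was 5 of the 24, where 9.56% of all probe sets passed, and again 0 after adjustment. The 5 were HSP90AB1 1557910_at, FKBP4 200894_s_at, CDC37 209953_s_at, STIP1 212009_s_at and CHORDC1 239436_at. Without both nsEP sample 3 and sham sample 1, the 2 arrays of highest actin ratio described below, the limma count was 2 of the 24. In that fit 3866 of all 54613 probe sets passed unadjusted.

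Ratios were also set beside signal level. Of the 24, 7 probe sets were in the brightest 1% of all probe sets, where the median log2 ratio of heat shock over sham was 0.42 and 518 of 547 were above 0 (2.01% called higher). In the next band, between percentiles 95 and 99, the median was 0.10, and between 90 and 95 it was −0.07. The 7 members in the brightest 1% had log2 ratios from 0.37 (PTGES3 200627_at) to 1.10 (HSP90AA1 211968_s_at), with a median of 0.71, and the other 17 had a median of 0.82. The part of signal level in the results was not tested. In the nsEP comparison the brightest 1% had a median of 0.14, close to the members' 0.11, and 475 of 547 were above 0. Over the 9 arrays, the genes most like HSP90AA1 214328_s_at among 12230 searched were TPT1 (Pearson r = 0.995), RPL30 (0.994), B2M (0.994), HNRNPU (0.993) and RPS6 (0.993), whose heat shock log2 ratios were 0.30 to 0.48. Those most like HSP90AB1 200064_at were COPS6 (0.987), PSMC1 (0.982), MVK (0.978), LINC03068 (0.978) and SLC25A5 (0.978), with heat shock log2 ratios of 0.38 to 0.95. These correlations are a description over 9 arrays that share 3 groups and each array's scaling.

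The actin control probe sets at the 3′ and 5′ ends of the transcript gave a measure of RNA or labelling quality. The log2 ratio of 3′ to 5′ signal was 0.31, 0.37 and 1.24 in nsEP samples, 0.79, 0.62 and 0.72 in heat shock samples and 1.26, 0.58 and 0.52 in sham samples. Hence nsEP sample 3 and sham sample 1 stood apart from their groups by actin. The same ratio for the GAPDH controls was −0.22, −0.11 and 0.56 in nsEP samples. It was −0.005, −0.03 and −0.06 in heat shock samples and 0.26, −0.05 and 0.21 in sham samples. By GAPDH nsEP sample 3 again stood apart, while sham sample 1 lay near sham sample 3. The arrays of nsEP sample 3 and sham sample 1 gave the lowest value of their group for HSP90AB1 1557910_at and 214359_s_at, STIP1 212009_s_at, FKBP4 200894_s_at, HSP90AA1 211968_s_at and CDC37 209953_s_at, 6 of the 24. For 13 of the 24, STIP1 213330_s_at, FKBP4 200895_s_at and HSP90AA1 214328_s_at among them, nsEP sample 3 was instead the highest of its group. With the actin ratio as a covariate, chosen after seeing the data, 14 of the 24 were called in heat shock against sham, and the calls over all probe sets were also more, 3325 against 2276 as reported. Among the 14, STIP1 212009_s_at had a log2 ratio of 0.88 (limma adjusted p = 0.0238) and HSP90AB1 1557910_at one of 1.17 (limma adjusted p = 0.00438). Without these 2 arrays 9 were called for heat shock over sham (2128 of all probe sets) and 0 for nsEP over sham (17). Between the exposures 10 were called, where the calls over all probe sets were 3924, against 2707 as reported. In this fit STIP1 213330_s_at lost its heat shock call and CACYBP 210691_s_at its call between the exposures, and HSP90AA1 211969_at was called in both. Without nsEP sample 3 alone, 13 were called in heat shock against sham (3112 of all probe sets), the 9 above with HSP90AA1 211969_at (limma adjusted p = 0.0111), FKBP4 200894_s_at (0.0206) and CACYBP 201381_x_at (0.0286) and 210691_s_at (0.0395).

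**Figure D4:**
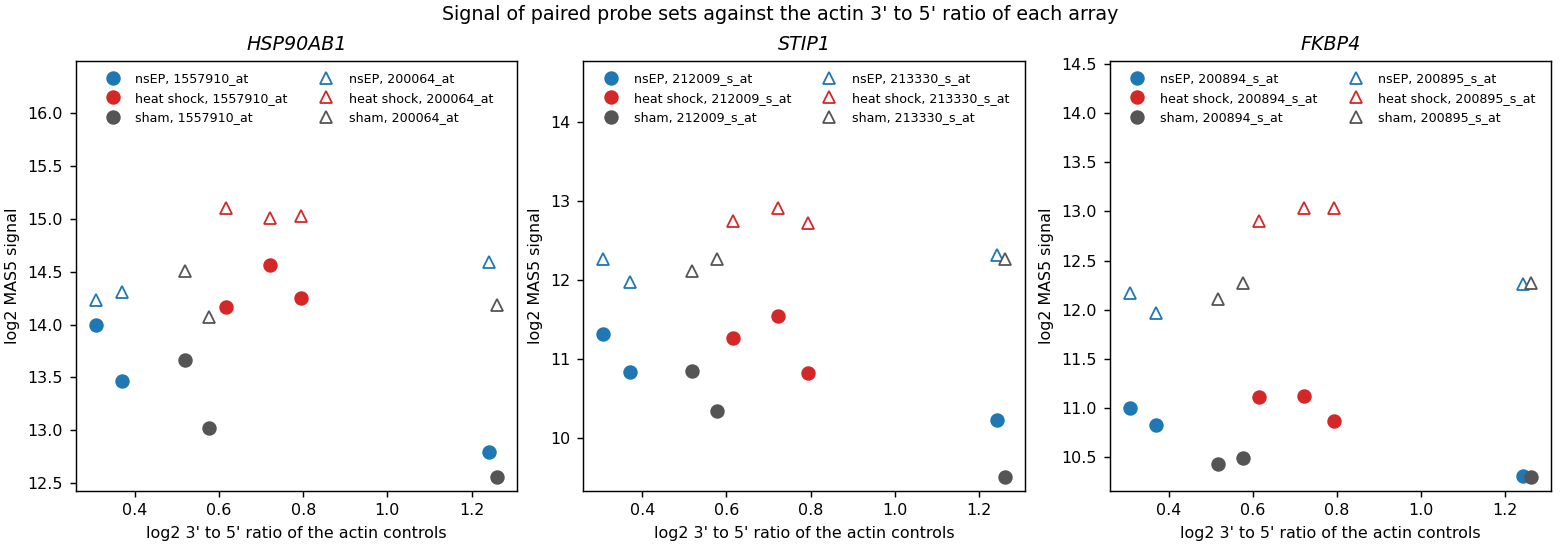
The log2 MAS5 signal of 2 probe sets each of HSP90AB1, STIP1 and FKBP4 on the 9 arrays against the log2 ratio of 3′ to 5′ actin control signal of the array, coloured by group. The filled probe sets are lowest on nsEP sample 3 and sham sample 1, at actin ratios of 1.24 and 1.26, and the open ones are not.

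Other genes of the same machinery were read at their brightest probe set. Of 32 genes for the endoplasmic reticulum paralogue HSP90B1 and further cochaperones, 0 were called higher and 1 lower in heat shock against sham, and none in nsEP against sham, with medians of 0.03 and −0.05. Over all 19775 genes, 340 were called higher and 789 lower with heat shock. The gene called lower was FNIP2, a folliculin partner that slows HSP90 ATP use, at 10.61, 10.91 and 10.46 in nsEP samples, 9.72, 9.87 and 9.38 in heat shock samples and 10.92, 10.96 and 10.80 in sham samples. Its heat shock samples were the lowest 3 of the 9, at a log2 ratio over sham of −1.23 (SE 0.17, limma adjusted p = 0.00150). Between exposures FNIP2 and TTI2, part of the TELO2 complex that hands large kinases to HSP90, were higher in nsEP than in heat shock, at log2 ratios of 1.00 and 0.78 (limma adjusted p = 0.00529 and 0.0298). At their brightest probe sets with 1 symbol, 3 of the 9 member genes were called with heat shock, HSP90AB1, STIP1 and FKBP4.

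Of 18 other cytosolic and mitochondrial chaperone genes listed, 14 had a probe set with 1 symbol. The HSP70 genes HSPA1A, HSPA1B and HSPA8 had none, nor did TCP1, and they were not read here. The 14 had a median log2 ratio of heat shock over sham of 0.45, against 0.55 for the 9 member genes at their brightest probe sets. Of these 14 cytosolic and mitochondrial chaperone genes, 5 were called higher with heat shock and 0 lower, the largest being DNAJB1, an HSP40 that stimulates HSP70 (log2 ratio 3.14, limma adjusted p = 1.03e-07). BAG3, a nucleotide exchange factor of HSP70, followed at 2.96 (adjusted p = 2.51e-06), then the small heat shock protein HSPB1 at 2.12 (0.00229) and HSPH1, an HSP110, at 1.98 (1.52e-05), all by limma. The fifth was HSPA4L at 1.47, all 5 stayed above 0 in spike-in scaling, and the 9 genes not called had log2 ratios of 0.04 to 0.51. None of the 14 was called in nsEP against sham, where DNAJB1 had a log2 ratio of 0.40 (SE 0.14, limma adjusted p = 0.585). Of HSF1, HSF4 and HSBP1, which encodes a small protein that binds HSF1, none was called in any comparison, and HSF1 stood at log2 ratios of −0.37 for nsEP over sham and 0.08 for heat shock over sham. Of 15 HSP90 client genes, 1 was called with heat shock, the insulin receptor INSR (log2 ratio 1.31, SE 0.30, limma adjusted p = 0.0277), and none with nsEP. Of the 12 T cell markers, 3 were called lower with heat shock, TRAT1 at −2.16, CD2 at −1.79 and CD28 at −1.01, and of 5 B cell markers none was.

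**Figure D5:**
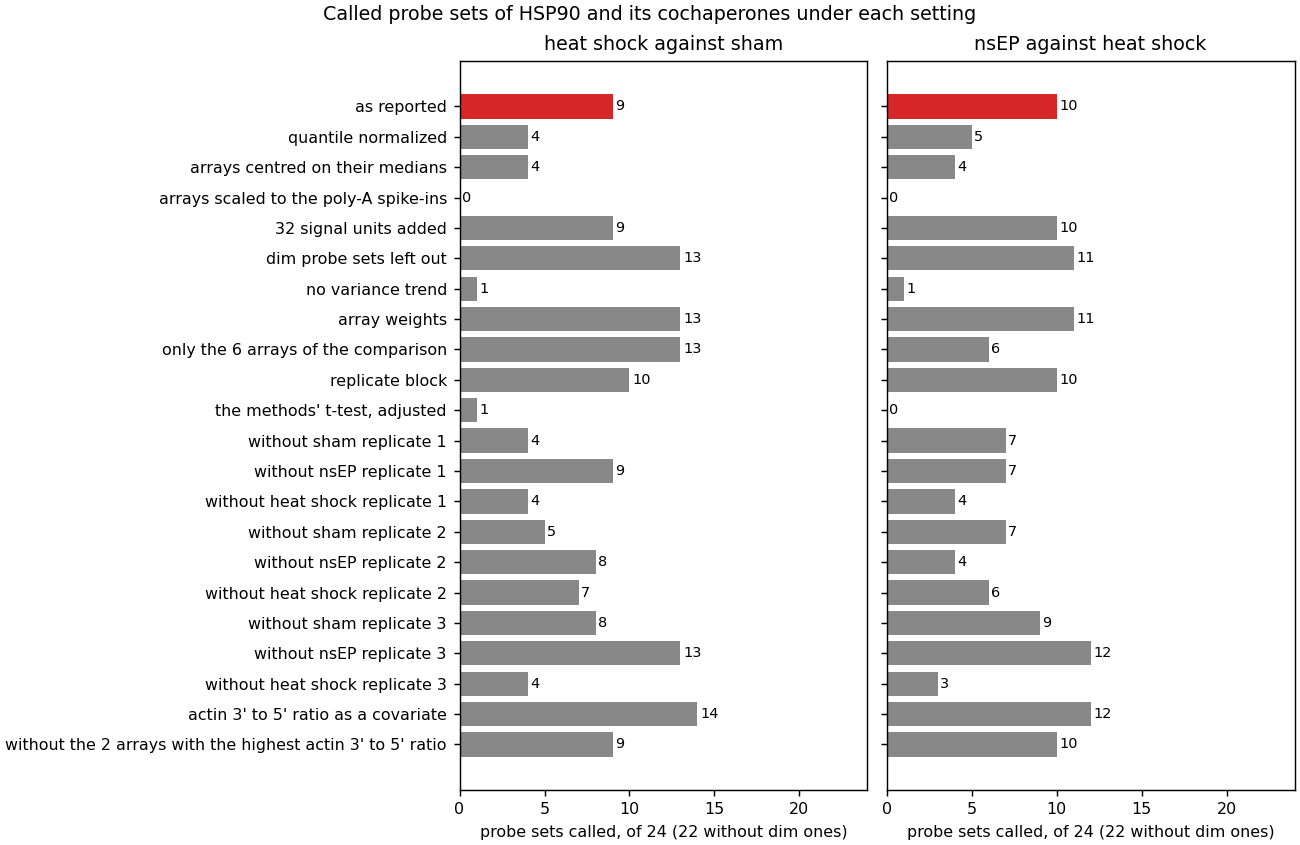
The number of the 24 probe sets called (22 where dim ones were left out) as reported and under each alternative setting, for heat shock over sham and for nsEP over heat shock. As reported 9 and 10 were called, and the counts ran from 0, with poly-A spike-in scaling and, in nsEP against heat shock, with the methods' t-test too, to 14 and 12. With poly-A spike-in scaling 19 of the 24 heat shock over sham ratios lay below 0.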

How the data were processed

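Total RNA of Jurkat cells was hybridised to 9 Affymetrix arrays, 3 per group. The deposited values are log2 values, which the authors made from MAS5 signals (named in the submitters' processing notes), without quantile normalization or a filter on dim probe sets. With the lowest and highest 2% left out, the mean signal was 500.1 on each array. Depth has no meaning here, and the number of arrays limits the precision. The 62 Affymetrix control probe sets were set aside, and probe sets were named through the platform's probe table. One limma model (version 3.58.1, R 4.3.3) took in all 9 arrays (lmFit, eBayes with a variance trend, two-sided), with Benjamini-Hochberg adjustment over 54613 probe sets. The fit was tested on simulated data. Groups came from the sample titles. A gene outside the members stood for its brightest probe set with 1 symbol, and a listed gene with no such probe set was left out. Every member probe set was reported, and other lists gave up to 4 called genes, or up to 2 with the smallest p, plus the 5 genes most like HSP90AA1 and HSP90AB1, with NAALAD2, CD3D and HSF1 added afterwards. Members and lists were chosen with earlier results of these data known. Alternatives covered normalization, an added 32 signal units, dim probe sets, variance trend, array weights, the 6 arrays alone, a replicate block, the methods' t-test and leaving out each array.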

Additional observations from a re-analysis of the deposited data

How the results depend on the processing

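None of the 24 HSP90 and cochaperone probe sets was called in nsEP against sham under any alternative, including the 9 fits with 1 array left out. In heat shock against sham 9 were called as reported, where 2276 of all 54613 probe sets were. With the count over all probe sets in brackets, 4 were called with quantile normalization (2073) and 4 with array medians as the reference (4571). Poly-A spike-in scaling gave 0 (3257), leaving out the variance trend 1 (837) and the methods' t-test 1 (377). The actin ratio as a covariate, added after seeing the data, gave 14 (3325), and 1 array left out gave 4 to 13 (1130 to 3112). In nsEP against heat shock 10 were called (2707). The first 5 of these settings, in the same order, gave 5 (2361), 4 (4792), 0 (1618), 1 (1100) and 0 (124). With only the 6 arrays of the comparison 6 were called (1882), and with 1 array left out 3 to 12 (1343 to 4018). Under spike-in scaling, called values that changed sign in heat shock against sham were HSP90AB1 200064_at (−0.22), FKBP4 200895_s_at (−0.24), HSP90AA1 210211_s_at (−0.19), CACYBP 211761_s_at (−0.0531) and STIP1 213330_s_at (−0.43), and in nsEP against heat shock HSP90AB1 200064_at (0.26), FKBP4 200895_s_at (0.0756), HSP90AA1 210211_s_at (0.26) and 211968_s_at (0.0348), CACYBP 210691_s_at (0.15) and STIP1 213330_s_at (0.32), on the log2 scale. That setting moves every ratio of a comparison by the same amount and also changes the SE. The part of each in the lost calls was not tested.

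Over all probe sets, nsEP against sham gave 32 calls as reported, 12 with spike-in scaling, 63 without dim probe sets, 7 without the variance trend, 52 with array weights, 14 with only its 6 arrays, 0 with the methods' t-test, 55 with the actin covariate, 17 without the 2 arrays of highest actin ratio and 15 to 36 with 1 array left out. Heat shock against sham gave 2276 (987 higher, 1289 lower), against 4571 with array medians as the reference (714 higher, 3857 lower), 3257 with spike-in scaling (153 higher, 3104 lower), 837 without the variance trend, 377 with the methods' t-test and 1130 to 3112 with 1 array left out. Nanosecond pulses against heat shock gave 2707 (1261 higher, 1446 lower), against 4792 (3819 higher, 973 lower), 1618 (1483 higher, 135 lower), 1100 and 124 in the same order, and 1343 to 4018 with 1 array left out. The causes were not tested.

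Deviations from the group means correlated at −0.16 to 0.21 between samples of the same replicate number, and at 0.13 to 0.21 for number 2. The fit as reported used no pairing, and whether the numbers mark one was not tested. With the number as a replicate block, 0 of the 24 probe sets were called for nsEP over sham (31 of all probe sets), 10 for heat shock over sham (2268) and 10 for nsEP over heat shock (2544). HSP90AB1 1557910_at (limma adjusted p = 0.0624) and STIP1 213330_s_at (0.0510) lost their heat shock call under it, and HSP90AA1 211969_at and CACYBP 201381_x_at and 210691_s_at gained one.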
